A study of Mus musculus with 28 samples.

Results

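The genes described here are the mouse cytochromes P450 other than the Cyp2b and Cyp4a subfamilies, Cyp51 and Cyp26b1. They were chosen by gene symbol alone, as symbols made of Cyp, a family number, a subfamily letter and a gene number, from probe sets that carry 1 symbol. A gene had to be measured on both array types of the study, which left 72 genes of the 18974 that both types share. Where a gene had several probe sets, the one with the highest mean signal was used. The rule used no age difference, but it was set with earlier results of these data known. Of the 72 genes, 3 are annotated as transcribed pseudogenes (Cyp2d13, Cyp2d37-ps and Cyp4f41-ps).

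The study set old against young animals in 4 tissues. All mice were female C57BL/6J, group-housed on standard chow and killed after an overnight fast. The older group was 24 months old (103 weeks) and the younger group 6 months old (24 weeks). One Affymetrix array type carried liver and the thigh muscle quadriceps, with 3 arrays for each age and tissue (12 arrays). Another carried heart and the calf muscle gastrocnemius, with 4 for each age and tissue (16 arrays). The labels do not say that each array came from a separate mouse or that tissues came from the same mice, and the tests therefore weigh a difference only against the variation among these arrays, which may be technical in part. Values are the authors' deposited log2 signals from RMA, a method that corrects background, normalizes arrays and summarises the probes of a probe set. A difference of 1 is a factor of 2. Probe sets differ in brightness for the same amount of RNA, so signals are compared between samples and not between genes.

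Cytochromes P450 are haem enzymes that insert an oxygen atom into a substrate, with electrons passed on by a reductase in the endoplasmic reticulum or by adrenodoxin in mitochondria. In liver, members of the Cyp1, Cyp2 and Cyp3 families oxidise drugs, toxins, steroids and fatty acids, and nuclear receptors that sense foreign compounds control many of them. Others have a single physiological task, such as a step of bile acid, steroid hormone, vitamin D or retinoic acid metabolism. Several liver P450 genes of the mouse differ between the sexes under growth hormone control, and several are confined to hepatocytes on one side of the lobule.

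The tissues carried their own markers, and markers of other tissues were high on some arrays. All 7 hepatocyte markers lay above the array median in liver, and all 5 skeletal muscle markers in both muscles. All 5 cardiac markers did so in heart. That rule alone does not tell the tissues apart. The 5 cardiac markers also met it in gastrocnemius, the 5 skeletal muscle markers in heart, and 6 of 7 hepatocyte markers in quadriceps and heart. The mean signals were farther apart. Hepatocyte markers had 13.71 to 13.77 in liver, against 6.19 to 9.01 in quadriceps. Cardiac markers had 10.90 to 12.20 in heart, against 6.19 to 6.42 in gastrocnemius. The mean signal of 12 exocrine pancreas markers was 6.50, 9.55 and 6.15 in the 3 livers at 24 months, against 6.08 to 6.24 at 6 months, so the 24-month liver replicate 2 stood apart. The third 24-month liver array correlated better with the 6-month arrays (mean r = 0.994) than with the other two of its own age (0.992). The interquartile range of signals was 2.43 to 2.66 in 24-month livers, against 2.75 to 2.79 in 6-month livers. Between 1.70% and 3.31% of values were identical in any pair of arrays of a group, so none looked like the same array deposited again.

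In liver, no P450 gene passed an adjusted p of 0.05 between 24 and 6 months. limma's moderated test, adjusted by Benjamini-Hochberg over 19928 genes, called 0 of 72 members, and 0.326% of all genes (65). The smallest adjusted p of a member was 0.0543. At an unadjusted p under 0.05, 24 members differed (33.3%, against 32.8% of all genes), 18 higher at 24 months (25%, against 18.4%) and 6 lower (8.33%, against 14.4%). In 18 members (25%, against 18.7% of all genes) every 24-month array lay above every 6-month array, and in 6 (8.33%, against 17.4%) every one lay below. The median difference of the 72 was 0.07, with 45 higher (62.5%, against 54.3% of all genes) and 27 lower, and the median of all genes was 0.03. Fewer cells of a type and less RNA per cell cannot be told apart in such bulk samples.

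**Figure D1:**
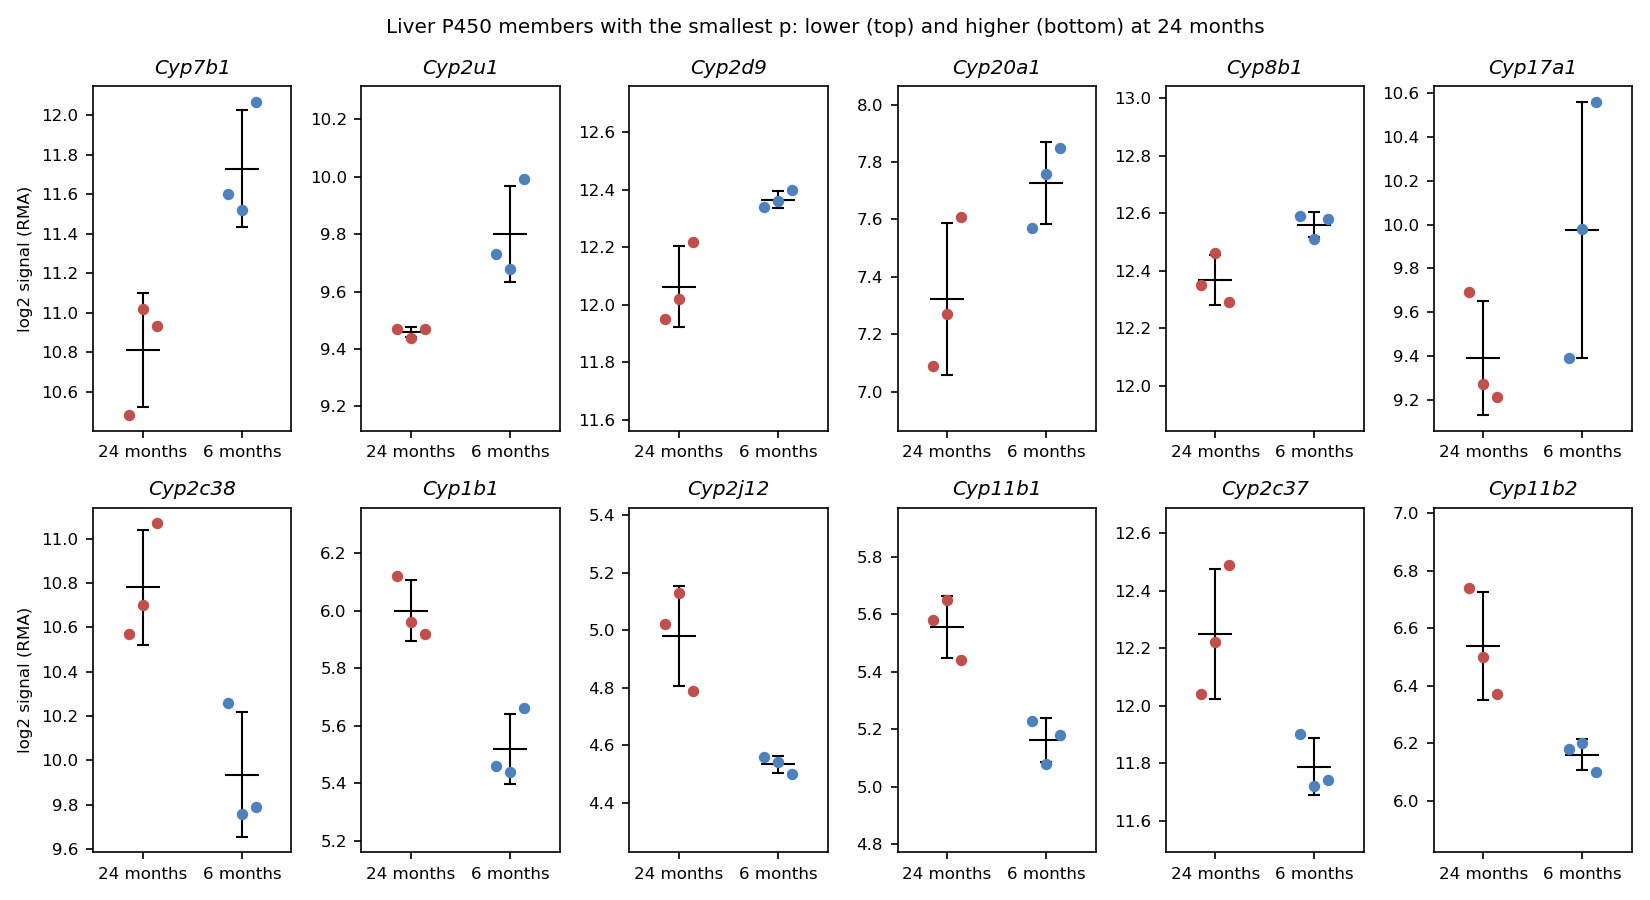
Liver log2 signal (RMA, y axis, a scale of its own in each panel) of the 6 P450 members with the smallest p in each direction, by age; points are arrays, the bar is the mean and the whiskers are 1 SD (n = 3 per age). The 24-month arrays lie apart from the 6-month arrays in every panel except Cyp20a1 and Cyp17a1; none of the 12 passed the adjusted threshold.

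Among the 6 genes of bile acid and sterol metabolism, 3 had lower and 3 had higher means in old livers, and the group held the lowest difference of all 72 members, that of Cyp7b1. Cyp7b1, the oxysterol hydroxylase of the alternative route of bile acid synthesis, had signals of 10.48, 11.02 and 10.93 in 24-month livers, against 11.60, 11.52 and 12.07 in 6-month livers. All old arrays were below all young ones. The means were 10.81 ± 0.29 at 24 months and 11.73 ± 0.30 at 6 months (SD, n = 3 each), a difference of -0.92 (SE 0.18), or a 1.89-fold higher signal at 6 months, with limma's adjusted p at 0.0543. Cyp8b1, the sterol hydroxylase that makes cholic acid, had 12.35, 12.46 and 12.29 at 24 months, against 12.59, 12.51 and 12.58 at 6 months. Here too the ages did not overlap, with a small difference of -0.19 (limma's adjusted p = 0.134). Cyp39a1, which hydroxylates an oxysterol from brain, had 8.79, 8.40 and 8.92 at 24 months, against 8.74, 9.20 and 9.23 at 6 months, and the ages overlapped.

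The other sterol genes had higher means at 24 months. Cyp7a1, the rate-limiting enzyme of the classic bile acid route, had 10.96, 11.87 and 11.55 at 24 months, against 11.16, 10.42 and 11.54 at 6 months. Its arrays overlapped and its difference of 0.42 had a standard error of 0.29. Cyp27a1, a mitochondrial sterol hydroxylase, differed by 0.15, from 12.14, 12.30 and 12.28 at 24 months and 12.15, 12.07 and 12.05 at 6 months. Cyp46a1, best known as the cholesterol hydroxylase of neurons, had 7.67, 7.71 and 7.69 at 24 months, against 7.54, 7.29 and 7.29 at 6 months, without overlap (difference 0.32, limma's adjusted p = 0.0691).

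The 5 steroid hormone genes are grouped by their role in hormone synthesis, which takes place mainly in adrenal and gonad. In liver their probe sets split by signal. Cyp17a1, which makes precursors of androgens, was the only one of the 5 above the array median and had the lowest difference of the group, -0.59. Its signals were 9.69, 9.27 and 9.21 at 24 months, against 9.39, 9.98 and 10.56 at 6 months, and the young arrays spread over more than 1 log2 unit. The 6-month mean of Cyp17a1 was 9.98 in liver, against 5.33 in quadriceps. Cyp11b1 and Cyp11b2, the last enzymes of corticosterone and aldosterone synthesis, gave weak signals. Cyp11b1 had 5.58, 5.65 and 5.44 at 24 months, against 5.23, 5.08 and 5.18 at 6 months (difference 0.39, limma's adjusted p = 0.0543). Cyp11b2 had 6.74, 6.50 and 6.37 at 24 months, against 6.18, 6.20 and 6.10 at 6 months (difference 0.38, limma's adjusted p = 0.0657). Both were without overlap. A list of 6 other markers of steroid-making cells had 1 member above the array median, and its mean signal was 5.12 to 5.28 in 24-month livers, against 4.90 to 5.11 in 6-month livers. The part of such cells in these values was not tested.

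Of the 4 vitamin D and retinoid genes, the retinoic acid hydroxylases had the higher means in old livers. Cyp26a1 had 6.48, 6.90 and 7.26 at 24 months, against 6.46, 6.64 and 5.79 at 6 months, with overlap and a difference of 0.58 (SE 0.24, limma's adjusted p = 0.133). Cyp26c1 had 6.10, 6.15 and 6.02 at 24 months, against 5.92, 5.66 and 5.88 at 6 months. The vitamin D enzymes Cyp2r1 and Cyp27b1 differed by -0.03 and -0.06.

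In the Cyp1 family, whose genes are classic targets of the aryl hydrocarbon receptor, all 3 means were higher in old livers. Cyp1b1, which oxidises polycyclic aromatic compounds and oestrogens and is mainly active outside hepatocytes, had 6.12, 5.96 and 5.92 at 24 months, against 5.46, 5.44 and 5.66 at 6 months. The ages did not overlap (means 6.00 ± 0.11 at 24 months and 5.52 ± 0.12 at 6 months, SD, n = 3 each, difference 0.48, limma's adjusted p = 0.0543). Cyp1a1 had 5.68, 5.45 and 5.37 at 24 months, against 5.29, 5.36 and 5.13 at 6 months (difference 0.24). Cyp1a2, the hepatocyte member that metabolises caffeine, had 11.88, 11.93 and 11.98 at 24 months, against 12.17, 11.84 and 11.68 at 6 months, and differed by 0.03. That is less than the 0.11 that centring on array medians takes off every liver difference. Cyp1a1 and Cyp1b1 had mean signals under the liver median of 6.53, where 78.8% of all genes had higher means at 24 months. The gene for the receptor itself, Ahr, had 9.72, 10.04 and 9.89 at 24 months, against 9.43, 9.29 and 9.19 at 6 months (difference 0.58, limma's adjusted p = 0.0543).

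The promoter of Cyp1b1 is shown because its ages were also apart in gastrocnemius. The window runs from 250 bases before to 50 bases after the RefSeq start, on the minus strand of GRCm38.p6, chr17:79715012-79715311, written 5′ to 3′. Capitals mark the 1 match to GCGTG or its complement, the core letters that the receptor and its partner recognise.
Cyp1b1: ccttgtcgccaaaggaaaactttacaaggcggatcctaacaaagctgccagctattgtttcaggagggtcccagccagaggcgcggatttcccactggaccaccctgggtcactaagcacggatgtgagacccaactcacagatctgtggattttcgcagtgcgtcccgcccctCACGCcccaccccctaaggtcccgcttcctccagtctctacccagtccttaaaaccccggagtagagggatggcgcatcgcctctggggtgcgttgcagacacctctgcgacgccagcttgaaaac
Of the 72 members, 54 have such a window in the RefSeq table used, and 13 of these hold the GCGTG letters on either strand (24.1%), against 32.5% of 27025 windows of the same length. The letters are short and common, and a match is a description of the sequence, not of binding.

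The Cyp2c subfamily, with 12 members, makes epoxides from arachidonic acid and oxidises drugs and steroids, and its genes lie next to each other in the genome. In old livers 10 of the 12 had higher and 2 had lower means, with a median difference of 0.14. Among all genes 54.3% were higher. Cyp2c23, Cyp2c65, Cyp2c67 and Cyp2c70 differed by 0.05 to 0.10, less than the 0.11 that centring on array medians takes off every liver difference. Cyp2c38 had the highest difference of all 72 members. Its signals were 10.57, 10.70 and 11.07 at 24 months, against 10.26, 9.76 and 9.79 at 6 months. The ages did not overlap, with means of 10.78 ± 0.26 at 24 months and 9.94 ± 0.28 at 6 months (SD, n = 3 each), a difference of 0.84 (SE 0.16) or 1.79-fold, and limma's adjusted p at 0.0543. Cyp2c37 had 12.04, 12.22 and 12.49 at 24 months, against 11.90, 11.72 and 11.74 at 6 months, also without overlap (difference 0.46, 1.38-fold, limma's adjusted p = 0.0611). Cyp2c66 had 5.81, 5.66 and 5.80 at 24 months, against 5.42, 5.58 and 5.38 at 6 months. The other members of the subfamily overlapped, with differences from -0.17 for Cyp2c55 to 0.34 for Cyp2c39, and Cyp2c23, the arachidonate epoxygenase studied mostly in kidney, differed by 0.05. Genes of this subfamily are similar in sequence, so a probe set named for one may also read its neighbours.

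The promoters of the pair of Cyp2c genes with the smallest p are shown side by side, from the same RefSeq table and with the same window. Capitals mark CAAAGT or its complement, letters found in binding sites of the hepatocyte factor HNF4. Cyp2c38 is at chr19:39463026-39463325 on the minus strand, and Cyp2c37 at chr19:39992174-39992473 on the plus strand.
Cyp2c38: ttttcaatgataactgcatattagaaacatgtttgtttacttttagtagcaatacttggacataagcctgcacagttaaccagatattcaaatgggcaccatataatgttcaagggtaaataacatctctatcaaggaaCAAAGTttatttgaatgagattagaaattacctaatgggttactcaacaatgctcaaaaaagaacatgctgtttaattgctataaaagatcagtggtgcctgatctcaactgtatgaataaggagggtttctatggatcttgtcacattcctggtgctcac
Cyp2c37: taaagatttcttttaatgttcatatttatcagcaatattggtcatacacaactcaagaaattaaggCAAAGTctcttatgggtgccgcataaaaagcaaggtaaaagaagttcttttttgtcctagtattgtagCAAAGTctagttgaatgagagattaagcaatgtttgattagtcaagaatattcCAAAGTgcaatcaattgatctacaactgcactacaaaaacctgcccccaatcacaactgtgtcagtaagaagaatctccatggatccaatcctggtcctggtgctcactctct
The window of Cyp2c38 holds 1 match and that of Cyp2c37 holds 3, and the aligned windows are identical at 56.9% of 325 positions. Among the 54 members with a window, 22 hold the letters (40.7%), against 14.3% of all windows. Of the 18 members with a window whose liver signal exceeded that of quadriceps by more than 5 log2 units at 6 months, 10 hold them (55.6%). Another set of letters, TTCNNNGAA, as in sites of the growth hormone factor STAT5, occurs in 4 of the 54 (7.41%) and in 8.47% of all windows. Of the 18 members strongest in liver, 0 hold these letters and 1 holds GCGTG (5.56%, against 32.5% of all windows). The shares among other genes as strong in liver were not counted. All letters were searched on both strands.

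In the Cyp2d subfamily, whose human counterpart clears many drugs, 4 of 9 members had higher and 5 had lower means in old livers (median -0.10). Cyp2d9, a testosterone hydroxylase that is male-biased in mouse liver, had 11.95, 12.02 and 12.22 at 24 months, against 12.34, 12.36 and 12.40 at 6 months, without overlap (difference -0.30, limma's adjusted p = 0.0734). Cyp2d12 had 4.72, 4.89 and 4.63 at 24 months, against 4.61, 4.37 and 4.35 at 6 months. Cyp2d22 and Cyp2d26 differed by 0.13 and 0.11, each without overlap, and Cyp2d10 by -0.14 with overlap.

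Of the remaining Cyp2 genes, the ethanol and paracetamol oxidase Cyp2e1 had almost the same signal at both ages, 13.77, 13.86 and 13.93 at 24 months and 13.87, 13.83 and 13.85 at 6 months. Its difference was 0.00 (SE 0.08). Cyp2f2, which activates naphthalene in lung and in hepatocytes near the portal vein, differed by -0.11, and Cyp2a12 by -0.10. Cyp2u1, a fatty acid hydroxylase, had 9.47, 9.44 and 9.47 at 24 months, against 9.73, 9.68 and 9.99 at 6 months, without overlap (difference -0.34, limma's adjusted p = 0.0678). Cyp2g1, an enzyme of the olfactory lining, had 5.71, 5.79 and 5.76 at 24 months, against 5.55, 5.38 and 5.63 at 6 months. Cyp2a22 differed by 0.34, and only its 24-month replicate 3, at 8.60, stood out from the rest (7.62 to 7.86).

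The 6 Cyp2j genes, epoxygenases of arachidonic acid, split evenly, with 3 higher and 3 lower means. Cyp2j12 had 5.02, 5.13 and 4.79 at 24 months, against 4.56, 4.54 and 4.50 at 6 months (difference 0.45, limma's adjusted p = 0.0543). Cyp2j13 had 5.24, 4.94 and 5.37 at 24 months, against 4.86, 4.78 and 4.62 at 6 months (difference 0.43, limma's adjusted p = 0.0674). Neither overlapped, and both signals lay below the array median. Cyp2j5, the hepatocyte and kidney member, differed by -0.06.

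The Cyp3a subfamily, which includes the main drug oxidase of mouse liver, Cyp3a11, had the narrowest spread of the larger groups. Its 6 differences ran from -0.09 to 0.14, none had an unadjusted p under 0.05, and every gene overlapped between the ages. Cyp3a11 had 12.87, 12.95 and 13.09 at 24 months, against 13.20, 13.01 and 12.85 at 6 months, and Cyp3a25 differed by 0.07.

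Among the 11 Cyp4b, Cyp4f and Cyp4x genes, which hydroxylate the ends of fatty acids and eicosanoids, 7 had higher and 4 had lower means in old livers (median 0.12). Cyp4f14, the leukotriene hydroxylase of liver, had 10.27, 10.59 and 10.68 at 24 months, against 10.47, 10.08 and 9.96 at 6 months, with overlap (difference 0.34). Cyp4f18, known from neutrophils, had 6.06, 6.08 and 6.25 at 24 months, against 6.10, 5.70 and 5.56 at 6 months. A list of 6 T and B cell markers had mean signals of 6.54, 6.14 and 6.24 in the same 24-month livers, against 5.84 to 5.96 in 6-month livers, and its part in the Cyp4f18 and Cyp1b1 values was not tested. The orphan gene Cyp20a1 had 7.09, 7.27 and 7.61 at 24 months, against 7.57, 7.76 and 7.85 at 6 months, with overlap (difference -0.40, limma's adjusted p = 0.0903).

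**Figure D2:**
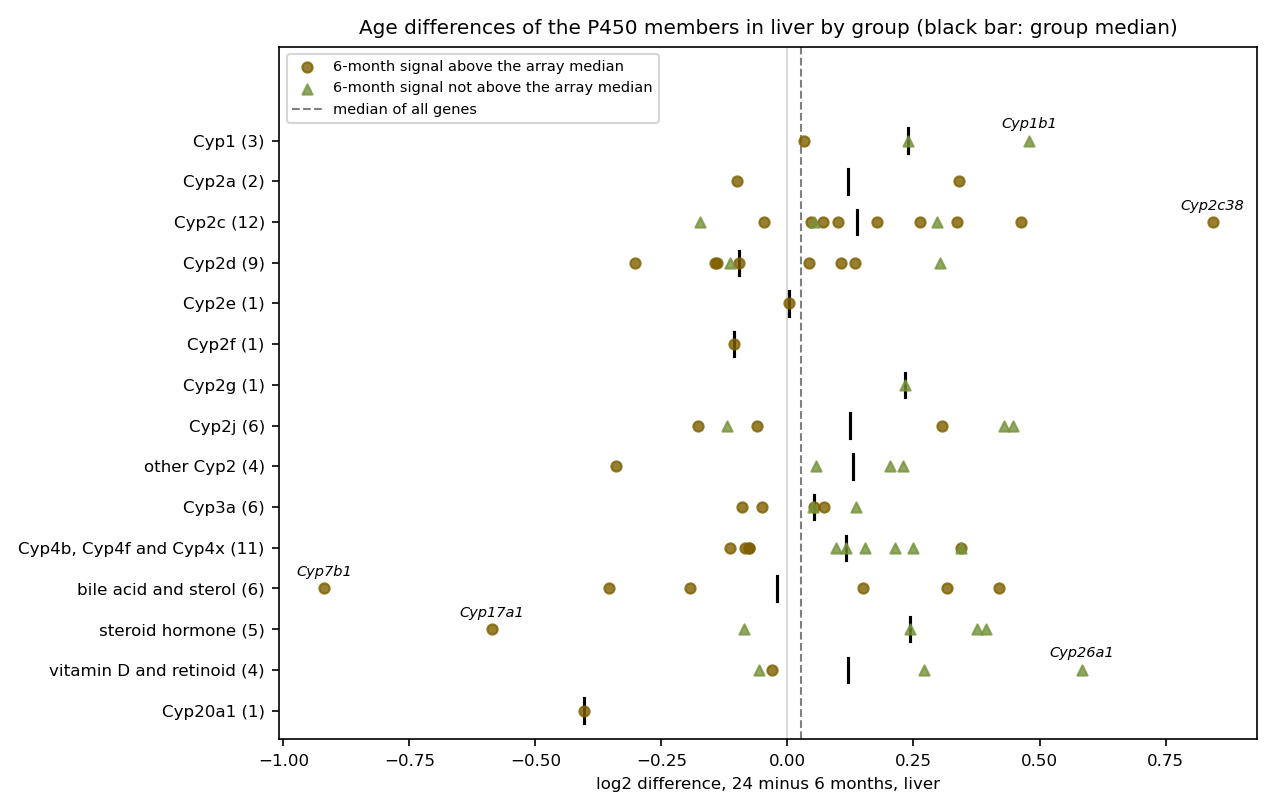
Log2 difference in liver, 24 minus 6 months (x axis), of each of the 72 P450 members, arranged by group (y axis, number of members in brackets); black bars are group medians and the dashed line is the median of all genes (0.03). Triangles, members whose signal was not above the array median, lie mostly to the right of 0, and circles lie on both sides.

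The sign of the liver differences went with the strength of the signal, in the members as in all genes. Of the 28 members with a mean signal under 6.53, the median of all probe sets on the liver arrays, 23 had a higher mean at 24 months and the median difference was 0.22. Among all genes under that signal, 78.8% were higher, with a median of 0.14. Of the 44 members at or above it, 22 were higher and 22 lower, with a median of -0.01, and among all such genes 33.3% were higher, with a median of -0.09. The weakly detected Cyp2j12, Cyp2j13, Cyp11b1, Cyp11b2, Cyp1b1 and Cyp2c66 belong to the first set, and Cyp7b1, Cyp2c38 and Cyp2c37 to the second.

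The liver calls turned on how the arrays were scaled and fitted. Centring each array on its median, which takes 0.11 off every liver difference, called 8 members, 3 higher and 5 lower (11.1%, against 14.4% of all genes), and moved the members' median to -0.04. Leaving out dim genes called 7 of 45 (15.6%, against 16.3% of genes), and a prior with an intensity trend called 11, 7 of them higher (15.3%, against 11.3%). A joint fit with quadriceps called 12 (16.7%, against 18.2%), and leaving out the 24-month liver replicate 3 called 11 (15.3%, against 25.5%). Cyclic loess called Cyp2c38 alone (1.39%, against 0.467% of all genes). The members' share was above that of all genes with the trend and with cyclic loess, and below it in the other 4. Quantile normalization and testing every probe set called no member. After quantile normalization Cyp1b1 differed by 0.33 in place of 0.48, and Cyp2c38 by 0.93 in place of 0.84. Cyp2c38 passed in 6 of 14 alternatives, with differences from 0.70 to 1.01, and Cyp7b1 in 5 of 14, with differences from -1.03 to -0.75. Without the 24-month liver replicate 2, where the pancreas markers were high, Cyp2c38 differed by 0.88 and Cyp7b1 by -1.02, and no member was called.

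Genes that serve or control the P450 enzymes were read from lists chosen by role, and none of their members passed the adjusted threshold in liver. Of 5 measured electron donors 3 had higher and 2 lower means at 24 months, among them Fdx1, the adrenodoxin of mitochondrial P450 enzymes, with 7.66, 7.81 and 7.76 at 24 months, against 7.95, 7.90 and 8.10 at 6 months. The reductase gene Por was not analysed here. Of 8 genes of haem synthesis and breakdown 3 were higher and 5 lower. Uros and Cpox, enzymes of the haem pathway, differed by -0.32 and -0.23 without overlap, and Alas1, its rate-limiting enzyme, by 0.20 with overlap. Of 22 regulators 11 were higher and 11 lower (median 0.05). After Ahr the smallest p values belonged to Cux2, a repressor that is female-biased in mouse liver (7.12, 6.91 and 6.84 at 24 months, against 6.61, 6.60 and 6.63 at 6 months), and to Nr1i3, the receptor CAR that senses drugs (11.42, 11.64 and 11.68 at 24 months, against 11.32, 11.28 and 11.22 at 6 months). Neither overlapped (limma's adjusted p = 0.063 and 0.0735).

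Sorted by known sex bias, the 3 P450 genes that are male-biased in mouse liver, Cyp2d9, Cyp7b1 and Cyp2u1, had lower means in the old females (median -0.34). In each every 24-month array lay below, which 17.4% of all genes also showed. All 3 had signals above 6.53. Among all genes at or above that signal 33.3% had higher means at 24 months, with a median difference of -0.09. The share of such genes with every 24-month array below was not counted. None of the 3 male-biased genes passed the adjusted threshold, and the list was chosen with earlier results of these data known. Of 4 measured female-biased genes 2 were higher and 2 lower (median -0.15). Sorted by place in the lobule, the 4 genes listed for the central-vein side (Cyp2e1, Cyp1a2, Cyp27a1 and Cyp7a1) had differences from 0.00 to 0.42. The 3 listed for the portal side (Cyp2f2, Cyp17a1 and Cyp8b1) had differences from -0.59 to -0.11. Cyp2e1 and Cyp1a2 differed by 0.00 and 0.03, less than the 0.11 that centring on array medians takes off every liver difference. The other members were not sorted by place. None of the 7 passed the threshold, and the ages overlapped in all of them but Cyp8b1. The place of these genes in the lobule was not measured here, and the sides are the lists' own assignment. These lists too were chosen with earlier results of these data known.

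In quadriceps, limma called 0 of 72 members between 24 and 6 months and 0.00502% of all genes (1). Unadjusted p values under 0.05 were found for 4 members, 3 higher (3.8% of all genes) and 1 lower (3.26%), which is 5.56% of members, against 7.06% of all genes. In 3 members (4.17%, against 6.69% of genes) all 24-month arrays lay above all 6-month arrays, and in 1 (1.39%, against 5.33%) all lay below. The median difference was 0.02, against 0.01 for all genes.

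The clearest age difference of any P450 gene in muscle was that of Cyp4f39, known in mouse skin as the hydroxylase of very long fatty acids for the skin barrier. Its quadriceps signals were 8.20, 8.39 and 8.37 at 24 months, against 7.52, 7.65 and 7.69 at 6 months. The gap between the ages was wider than the spread within either, with means of 8.32 ± 0.10 at 24 months and 7.62 ± 0.09 at 6 months (SD, n = 3 each). The difference was 0.70 (SE 0.08), or 1.62-fold, with limma's adjusted p at 0.0811. It passed limma's threshold when dim genes were left out (adjusted p = 0.0303, with 0.0821% of genes called), with an intensity trend (0.0109, with 0.0903%) and in a joint fit with liver (0.0204, with 0.0753%), and its size stayed between 0.65 and 0.76 in all 14 alternatives, with adjusted p between 0.0109 and 0.374. In gastrocnemius the same gene had 6.01, 6.00, 6.03 and 6.41 at 24 months, against 5.93, 5.89, 5.90 and 5.88 at 6 months, also without overlap, with a difference of 0.21 (limma's adjusted p = 0.273) that is 0.11 without the 24-month replicate 4. In heart it differed by -0.03 and in liver by 0.12, both with overlap.

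**Figure D3:**
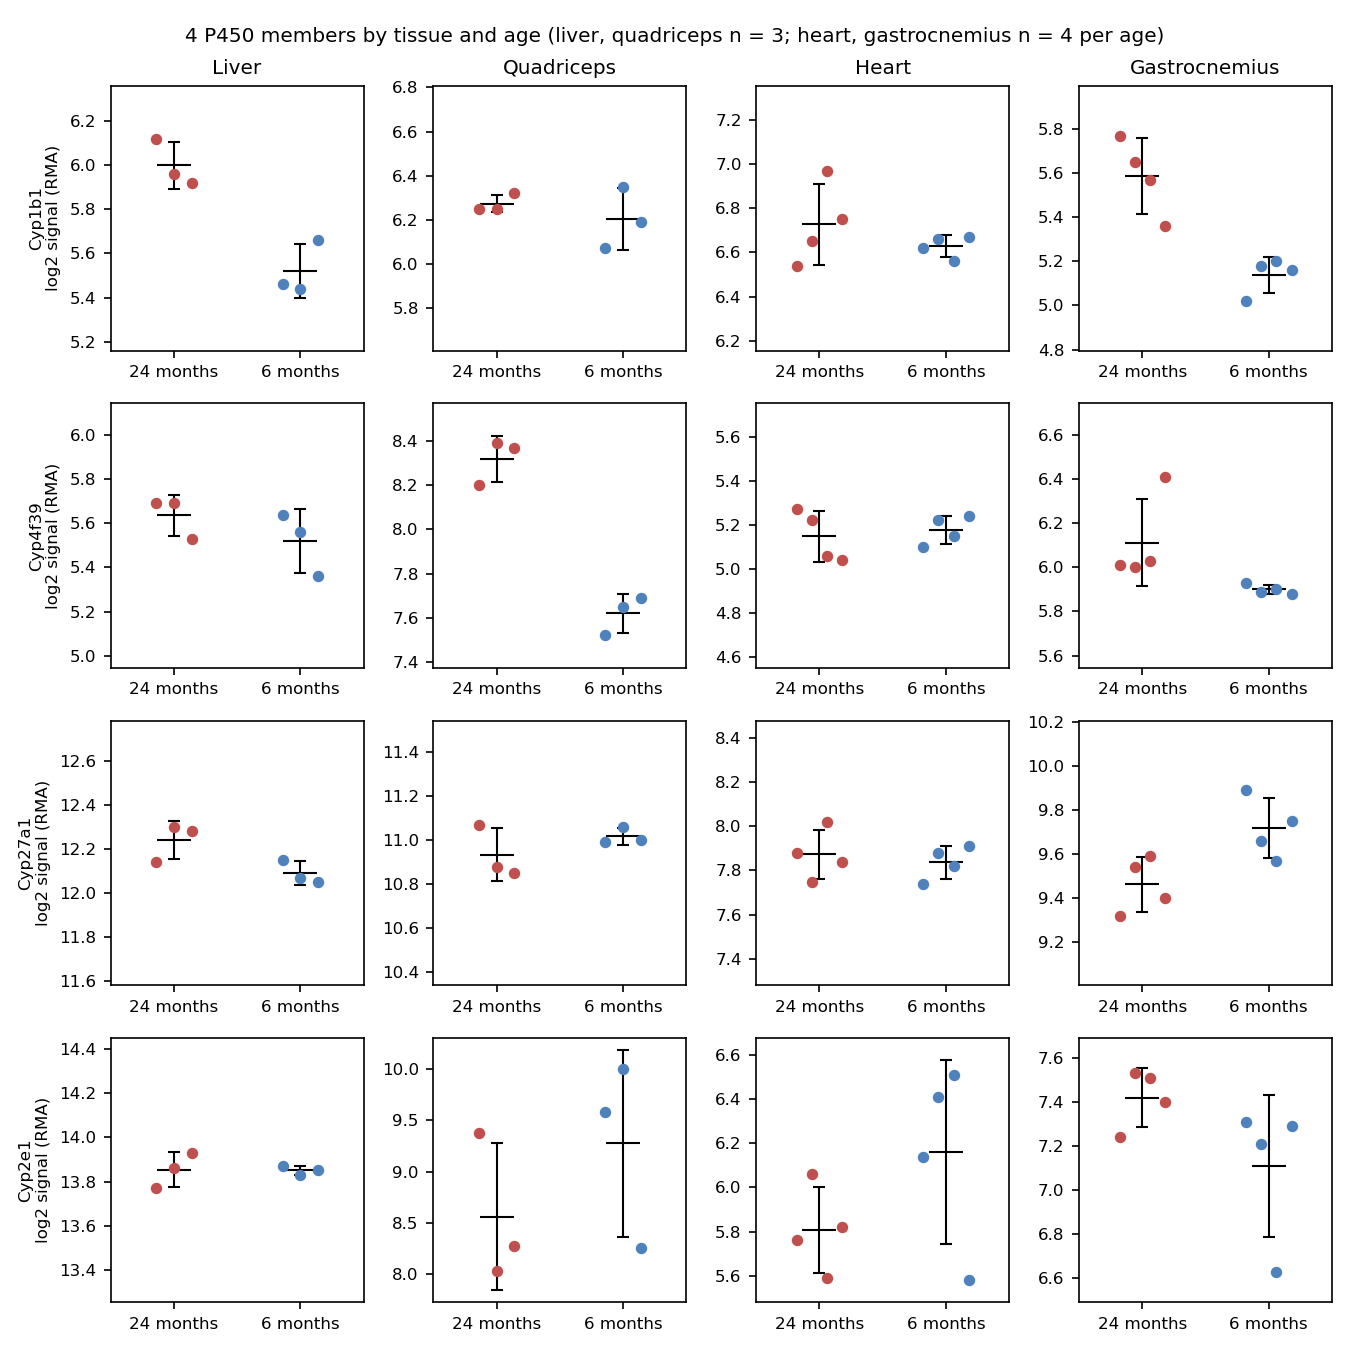
Log2 signal (RMA, y axes, a scale of its own in each panel) of Cyp1b1, Cyp4f39, Cyp27a1 and Cyp2e1 (rows) in liver, quadriceps, heart and gastrocnemius (columns) by age; points are arrays, the bar is the mean and the whiskers are 1 SD. Cyp4f39 is apart between the ages in both skeletal muscles, and Cyp1b1 in liver and gastrocnemius.

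Several of the other quadriceps values were high on a single array. Cyp2c67 had 4.79, 4.18 and 3.43 at 24 months, against 3.75, 3.35 and 3.45 at 6 months. The first 24-month quadriceps array was the highest of the 6 for 17 of the 23 members whose signal was over 5 log2 units higher in liver. Cyp3a11, for example, had 6.29 on that array, against 4.45 and 4.67 on the other 24-month arrays and 4.57, 4.68 and 5.18 at 6 months. The mean of the 7 hepatocyte markers was 9.01, 6.62 and 6.19 in 24-month quadriceps, against 7.41, 7.51 and 7.15 in 6-month quadriceps, so the same array had the highest marker signal. Albumin alone ranged from 7.58 to 11.91 over the 6 arrays. Without that array the Cyp2f2 difference is -0.19 in place of 0.21, that of Cyp3a11 is -0.25 in place of 0.33, and that of Cyp4f39 is 0.76 in place of 0.70. The part of liver RNA in these signals was not tested.

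Cyp2e1, which adipocytes also express, varied in quadriceps within both ages. It had 9.38, 8.03 and 8.27 at 24 months, against 9.58, 10 and 8.25 at 6 months (difference -0.72, SE 0.47). The difference is -1.23 without the 6-month replicate 3 and -1.13 without the 24-month replicate 1, and -0.36 without the 6-month replicate 2 and -0.45 without the 24-month replicate 2. The mean of 7 adipocyte markers was 9.04, 8.43 and 9.11 at 24 months, against 9.04, 9.03 and 7.97 at 6 months, and its part in the Cyp2e1 signal was not tested. Cyp39a1 had 7.30, 7.51 and 7.28 at 24 months, against 7.93, 7.69 and 7.47 at 6 months, with overlap (difference -0.33, limma's adjusted p = 0.646).

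**Figure D4:**
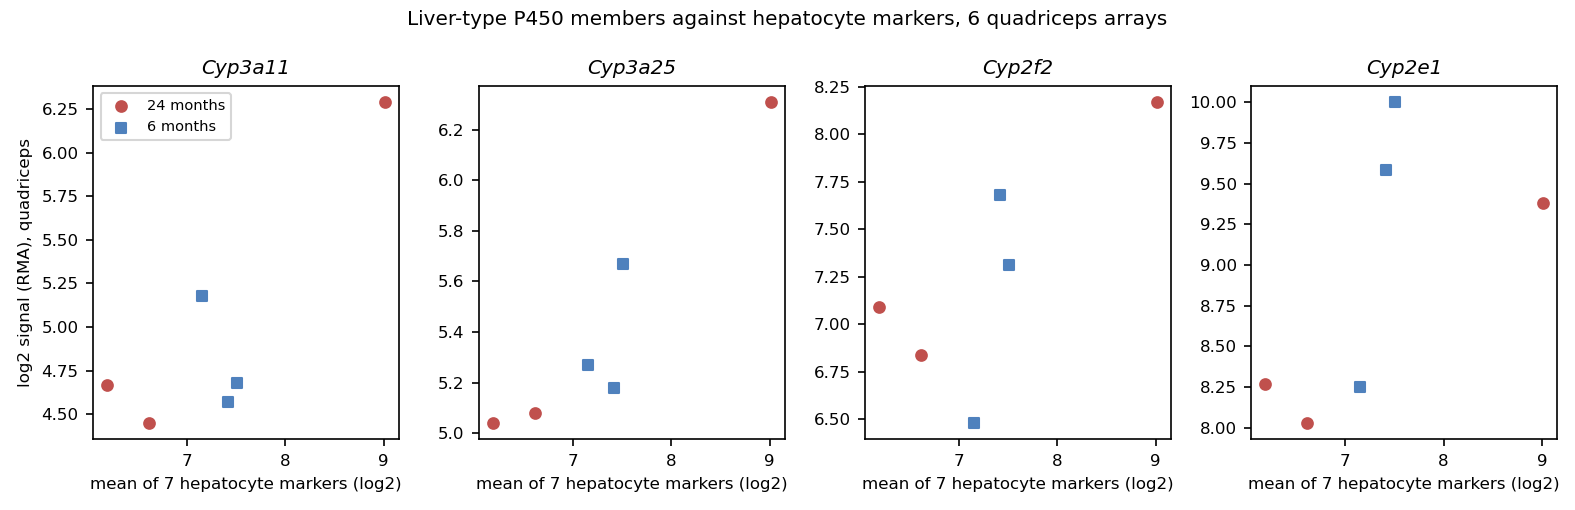
Log2 signal of Cyp3a11, Cyp3a25, Cyp2f2 and Cyp2e1 in quadriceps (y axes) against the mean log2 signal of 7 hepatocyte markers on the same array (x axis); circles are 24-month and squares 6-month arrays, 3 of each. The 24-month array with a marker mean of 9.01 has the highest signal of Cyp3a11 (6.29), Cyp3a25 (6.31) and Cyp2f2 (8.17), while Cyp2e1 is highest on a 6-month array (10).

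In heart, limma called 0 of 72 members and 0.00665% of all genes (2). At an unadjusted p under 0.05, 6 members differed, 1 higher (3.89% of all genes) and 5 lower (2.1%), which is 8.33% of members, against 5.99% of all genes, and the smallest adjusted p of a member was 0.572. The one member with every 24-month array above every 6-month array (1.94% of genes) was Cyp4f15, a fatty acid hydroxylase, with 6.40, 6.02, 6.64 and 6.13 at 24 months, against 5.99, 5.94, 5.95 and 5.99 at 6 months. The old hearts were uneven and the young ones were not (difference 0.33, SE 0.12, limma's adjusted p = 0.692, and 0.22 without the 24-month replicate 3). The 2 members with every 24-month array below (1.36% of genes) were Cyp3a25 and Cyp7a1, both with weak signals, at 3.17 to 3.38 and 3.19 to 3.29 in old hearts, against 3.43 to 3.57 and 3.30 to 3.41 in young hearts.

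Some liver-type members and the hepatocyte markers were high on the same heart array. Cyp2f2 had 5.55, 5.67, 5.39 and 5.30 at 24 months, against 5.70, 6.13, 5.72 and 5.52 at 6 months (difference -0.29, SE 0.13). The mean of the 7 hepatocyte markers was 5.43 to 5.65 in 24-month hearts, against 5.74 to 6.80 in 6-month hearts, and the second 6-month heart array, with 6.80, was the highest of the 8 for 10 of the 23 members strongest in liver. Without it the Cyp2f2 difference is -0.17. Cyp2e1 had 5.76, 6.06, 5.59 and 5.82 at 24 months, against 6.14, 6.41, 6.51 and 5.58 at 6 months, with overlap. The part of liver RNA was not tested.

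In gastrocnemius, limma called 0 of 72 members and 0.00998% of all genes (3). An unadjusted p under 0.05 was found for 7 members, 4 higher (7.44% of all genes) and 3 lower (9.05%), which is 9.72% of members, against 16.5% of all genes. In 3 members (4.17%, against 3.86% of genes) all 24-month arrays lay above all 6-month arrays, and in 1 (1.39%, against 4.78%) all lay below. Means were higher at 24 months in 56 members (77.8%, against 55.0% of all genes) and lower in 15, with a median of 0.04, against 0.015 over all genes. The split depended on scaling. Centring the arrays on their medians takes 0.04 off, which leaves 34 members higher and 36 lower with a median of 0.00, and quantile normalization leaves 37 higher and 35 lower.

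Cyp1b1 had the smallest p in gastrocnemius, with 5.77, 5.65, 5.57 and 5.36 at 24 months, against 5.02, 5.18, 5.20 and 5.16 at 6 months. The ages did not overlap, with means of 5.59 ± 0.17 at 24 months and 5.14 ± 0.08 at 6 months (SD, n = 4 each), a difference of 0.45 (SE 0.08) or 1.36-fold, and limma's adjusted p at 0.103. It passed the threshold in the joint fit with heart alone (adjusted p = 0.0218), where it was the 1 member called (1.39%, against 2.76% of genes). Macrophage markers, 6 in all, had means of 5.87 to 6.12 in 24-month gastrocnemius, against 5.79 to 5.84 in 6-month gastrocnemius, and endothelial markers, 5 in all, had 7.36 to 7.80 at 24 months, against 7.65 to 7.93 at 6 months. The 6 T and B cell markers had 5.86 on the 24-month replicate 1 and at most 5.02 on the other 24-month arrays, against 4.74 to 5.04 at 6 months, so that replicate, the highest for Cyp1b1, stood apart. Without that array Cyp1b1 differed by 0.39. The part of these cells in its values was not tested. In quadriceps Cyp1b1 had 6.25, 6.25 and 6.32 at 24 months, against 6.07, 6.35 and 6.19 at 6 months, and in heart it differed by 0.10, both with overlap.

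The other muscle members named by p were smaller. Cyp27a1, the mitochondrial sterol hydroxylase, had 9.32, 9.54, 9.59 and 9.40 at 24 months, against 9.89, 9.66, 9.57 and 9.75 at 6 months, overlapping by 1 array (difference -0.26, limma's adjusted p = 0.190). Cyp4b1, an oxidase of fatty acids and of lung toxins, had 6.16, 6.05, 6.16 and 5.90 at 24 months, against 6.29, 6.27, 6.22 and 6.23 at 6 months, without overlap (difference -0.18, limma's adjusted p = 0.213). Cyp2e1 differed by 0.31, of which the third 6-month array, at 6.63 against 7.21 to 7.31 for its group, gave a large part: without it the difference is 0.15.

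The age differences of 2 tissues on the same array type were set against each other with an interaction term. For liver minus quadriceps limma called 0 of 72 members and 0.0151% of all genes (3), with an unadjusted p under 0.05 in 15 members (20.8%, against 19.8% of all genes). The smallest p values belonged to Cyp4f39, whose age difference was 0.12 in liver and 0.70 in quadriceps (interaction -0.58, SE 0.13, limma's adjusted p = 0.0893), and to Cyp7b1, with -0.92 in liver and 0.00 in quadriceps (interaction -0.92, SE 0.22, limma's adjusted p = 0.0924). Both passed when arrays were centred on their medians (adjusted p = 0.0329 and 0.0491), with 0.984% of all genes called. Without the 24-month liver replicate 3, 4 members passed (5.56%, against 7.34% of all genes): Cyp2j12, Cyp20a1, Cyp4f39 and Cyp7b1. For heart minus gastrocnemius limma called 0 of 72 members and 0.595% of all genes (179), with an unadjusted p under 0.05 in 12 members (16.7%, against 13.8% of all genes), and the smallest belonged to Cyp2f2 (interaction -0.46, limma's adjusted p = 0.214).

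Tissue differences were far larger than age differences. At 6 months limma called 58 of the 72 members higher in liver than in quadriceps and 5 lower, against 41.6% and 28.1% of all genes (69.8% in either direction), with a median of 2.03 in the members and 0.10 in all genes. In 23 members liver exceeded quadriceps by more than 5 log2 units. Cyp3a11 had the largest difference, 8.21, with a mean of 13.02 in liver and 4.81 in quadriceps. Of the Cyp2c subfamily 11 of 12 were higher in liver (median 6.15), as were all 9 Cyp2d members (median 3.91) and all 6 sterol genes (median 3.83). Cyp27a1 was among the genes with a strong signal in both, 12.09 in liver and 11.02 in quadriceps.

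The 5 members lower in liver were Cyp4f39, Cyp26c1, Cyp1b1, Cyp3a57 and Cyp2j12, and 55 members kept the higher and these 5 the lower call under all 4 scalings tried. None of these 5 lay above the array median in liver. Cyp3a57 had the lowest liver signal of the 72 (3.07, against 3.60 in quadriceps), and Cyp2j12 had 4.53, against 4.92. A probe set shared by Cyp3a25, Cyp3a57 and Cyp3a59 had a mean of 11.54 in 6-month liver and 3.35 in 6-month quadriceps. That signal cannot be assigned to a single gene. Cyp4f39 had a mean of 5.52 in liver and 7.62 in quadriceps (difference -2.10). Cyp1b1 had 5.52 in liver and 6.20 in quadriceps (difference -0.68). The other 9 members, 3 of them steroid hormone genes, did not pass the threshold.

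**Figure D5:**
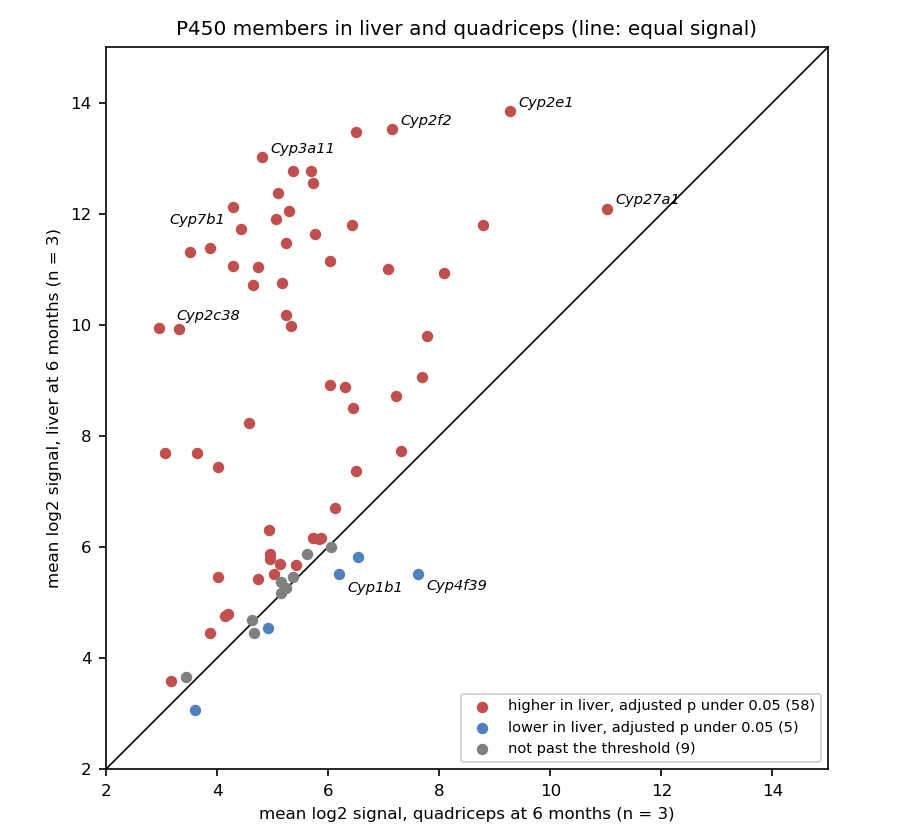
Mean log2 signal of each of the 72 P450 members at 6 months in liver (y axis) and quadriceps (x axis), n = 3 each; the line marks equal signal. Of the 72 points 65 lie above the line and 7 below; 58 members were called higher in liver, and Cyp4f39 and Cyp1b1 are among the 5 called lower.

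Between heart and gastrocnemius at 6 months the count depended on scaling. As deposited, 65 members were called higher in heart and 4 lower (62.2% and 15.2% of all genes, 77.4% in either direction), with a median of 0.40, against 0.27 for all genes. The heart arrays had medians 0.41 higher, and centring on the medians gave 21 higher and 21 lower (20.4% and 49.2% of all genes). Quantile normalization gave 26 higher and 18 lower (26.7% and 38.7%), and cyclic loess 26 higher and 13 lower (28.7% and 36.2%). Under all 4 scalings 21 members were higher in heart and 4 lower. Cyp4b1 had the largest difference, with a mean of 8.32 in heart and 6.25 in gastrocnemius (2.07, and 1.66 or more in every scaling), followed by Cyp1b1 and Cyp4f15 (1.49 each) and Cyp2j6 (1.39). The 4 lower in heart were Cyp27a1 (7.84 in heart, 9.72 in gastrocnemius, difference -1.88), Cyp2e1 (-0.95), Cyp4f39 (-0.72) and Cyp2c23 (-0.17).

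Some P450 genes fell outside the 72. On the liver and quadriceps type 2 further genes had a probe set, Cyp2c29 and Cyp2d11, and on the other type 9, and none passed the adjusted threshold in any tissue by limma. Cyp2c29 differed by 0.25 in liver (12.62 ± 0.19 at 24 months and 12.37 ± 0.26 at 6 months, SD, n = 3 each). Probe sets with several P450 symbols, 6 and 7 on the 2 types, were left out because their signal cannot be assigned. One of them, shared by Cyp2a4 and Cyp2a5, had 11.74, 11.49 and 11.82 in 24-month livers, against 11.57, 10.16 and 10.24 in 6-month livers, where 1 young array was as high as the old ones.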

How the data were processed

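Total RNA of each tissue was amplified with a whole-transcript kit and hybridised to Affymetrix arrays, per the labels' protocols. The authors deposited log2 signals per probe set, made with RMA per the submitters' processing notes (version not given in the sources used here), in 1 table for the 12 liver and quadriceps arrays and 1 for the 16 heart and gastrocnemius arrays. Ages were compared only within a table, and no depth exists for arrays, whose number limits the precision.

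Probe sets with 1 gene symbol in the platform annotation were kept, symbols were updated through RefSeq (GRCm38.p6), and the probe set with the highest mean stood for a gene, which gave 19928 and 30063 genes. Of 28944 and 65956 probe sets, 21797 and 30604 carried 1 symbol, 1613 and 2146 several and 5534 and 33206 none. Each tissue was fitted alone with limma 3.58.1 in R 4.3.3 (lmFit and eBayes, two-sided), with Benjamini-Hochberg adjustment over all genes and a threshold of 0.05. Interactions and tissue levels at 6 months were fitted over the 4 groups, or the 2 groups, of an array type. In simulated data with 100 genes changed by 1 log2 unit the liver fit recovered 89, the quadriceps fit 87, the heart fit 98 and the gastrocnemius fit 97. Of 100 genes changed by 0.5 in the same data they recovered 40, 53, 79 and 76. They also called 5, 6, 11 and 7 unchanged genes. The simulated noise was normal and independent between genes, at each gene's own spread, with no shift between arrays. Real arrays need not behave so, and these counts do not measure what the fits above could detect.

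The alternatives were quantile normalization, centring on array medians, cyclic loess (3 iterations), leaving out dim genes, testing every probe set, an intensity trend with a robust prior, the replicate number as a block, a joint fit with the other tissue, and leaving out each array. Named members are the 10 with the smallest p in each direction in liver and the 4 in each other tissue, the strongest liver signal of each group, and the 12 strongest signals in liver and 4 in each other tissue. Of each partner list the 3 with the smallest p in liver were named. Members outside the rule (Cyp1a1, Cyp26c1, Cyp27b1, Cyp2c39, Cyp3a57, Cyp4f14 and the pseudogenes) were added after their values were seen, to complete a group. Dixon's test looked for arrays far from their group. Replicate numbers were not taken to pair arrays, since in no tissue did every same-numbered pair correlate above 0.1. The members, lists, markers and motifs were chosen with earlier results of these data known.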

Additional observations from a re-analysis of the deposited data

Results flagged for a closer look

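Each of the 47 named members was looked at in the 4 heart and gastrocnemius groups of 4 arrays. In 13 of these 188 groups 1 array lay farther from the others than Dixon's test allows, and chance flags about 1 in 20 groups. In 24-month hearts Cyp2c67 was 3.53 and Cyp2u1 7.14 on replicate 1, and Cyp2d10 was 6.27 and Cyp2d26 5.46 on replicate 4. In 6-month hearts replicate 1 was low for Cyp11a1 (4.70), Cyp2c67 (3.30) and Cyp4x1 (4.44). In 24-month gastrocnemius replicate 4 was high for Cyp2c68 (3.17) and Cyp4f39 (6.41). In 6-month gastrocnemius replicate 3 was low for Cyp11b1 (4.77) and Cyp2e1 (6.63), and replicate 4 was high for Cyp2d34 (4.93) and Cyp3a11 (3.15). These arrays stayed in every fit above.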

How the results depend on the processing

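Of the liver counts, 0 members passed as deposited, with quantile normalization or with every probe set tested. With arrays centred on their median 8 passed, and 1 with cyclic loess. With dim genes left out 7 passed, 11 with an intensity trend and 12 in the joint fit. Leaving out 1 array gave 0 to 11, the 11 being without the 24-month liver replicate 3. The members' liver median of 0.07 was -0.0417 after centring and 0.00333 without dim genes, and between 0.0217 (without 24-month replicate 3) and 0.142 (without 6-month replicate 1) with 1 array left out. In quadriceps 1 member passed without dim genes, 1 with the trend and 1 in the joint fit, each time Cyp4f39. In gastrocnemius 1 passed in the joint fit (Cyp1b1, with 2.76% of all genes), and the median was 0.000938 after quantile normalization and -0.00125 after centring. The liver minus quadriceps interaction called 2 members after centring (0.984% of all genes), 1 without dim genes (1.58%) and 1 with the trend (0.798%), and 0 to 4 with 1 array left out. Heart against gastrocnemius called 69 members as deposited, 44 with quantile normalization, 42 after centring, 39 with cyclic loess and 37 without dim genes. Beyond scaling and the fewer genes or arrays tested, the causes were not tested. No named member changed sign past a threshold. Signals above the array median were found for 43 of the 72 members in liver, 16 in quadriceps, 31 in heart and 32 in gastrocnemius.

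With the replicate number as a block (replicate block), 0 members passed in every age comparison and 63 and 69 in the comparisons of tissues. Deviations of same-numbered arrays correlated at -0.02 to 0.05 in liver, -0.04 to 0.16 in quadriceps, -0.22 to -0.0024 in heart, and 0.13, -0.04, 0.21 and 0.30 in gastrocnemius. In gastrocnemius 3 of the 4 pairs were above 0.1 and above any other pairing of the same array tried, but not every pair was in any tissue, so the numbers were not taken to pair the arrays.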
